A study of Homo sapiens with 8 samples.

Results

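Amino acid enzymes of the transsulfuration, proline and branched-chain routes, together with cytosolic aspartate aminotransferase, were followed in MV4-11 cells treated with an inhibitor of CDK4/6, an inhibitor of LSD1 or both. The group holds 8 genes (CBS, CTH, ALDH18A1, PYCR1, BCAT1, BCAT2, BCKDHA and GOT1) of the 26364 gene rows of the expression table. They were taken by symbol, and the list was chosen from measured values of these same libraries, so the levels and differences between treatments are given as a description with no test. Two-sided exact permutation of 2 against 2 libraries could in any case not go below p = 0.333.

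MV4-11 is an acute myeloid leukemia (AML) cell line that carries FLT3-ITD and the MLL-AF4 fusion, and every group shares both lesions. RNA-seq was made of 8 libraries in 4 groups of 2: DMSO alone (control), tranylcypromine (TCP, an LSD1 inhibitor) at 5 µM, palbociclib (a CDK4/6 inhibitor) at 0.5 µM, and both together (combination). The labels place all libraries at day 4. In the combination, according to the study's methods, the CDK6 inhibitor was given alone on the first day and kept on when the LSD1 inhibitor joined it for the rest of the time. How long TCP was given on its own is not clear from these sources. The study's methods also describe growth of cell lines on HS-5 stromal cells, which the labels do not mention. Nothing states that the 2 libraries of a group came from separate cultures, so the errors below measure the spread between these libraries, which may be technical.

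CBS and CTH are the 2 enzymes of transsulfuration, the route that passes the sulfur of homocysteine to cysteine, a precursor of glutathione. ALDH18A1 and PYCR1 are mitochondrial enzymes of proline synthesis from glutamate, at its first and last steps. BCAT1 in the cytosol and BCAT2 in mitochondria move the amino group of leucine, isoleucine and valine to 2-oxoglutarate, and BCKDHA is the E1 alpha subunit of the complex that then commits their carbon skeletons to breakdown. GOT1 interconverts aspartate and oxaloacetate in the cytosol. Several of these genes are known targets of ATF4, the transcription factor of the amino acid response, and BCAT1 is a well studied gene in myeloid leukemia.

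Because members of the group shared a direction, their promoter sequences were read for 2 short motifs, on both strands. TGATGNAA is a core of the composite C/EBP-ATF element bound by ATF4, and CACGTG is the E-box bound by MYC. The windows are 300 bases around RefSeq starts on GRCh38.p14, and 6 of the 8 genes matched, with 12 windows (BCAT2 and PYCR1 were not in the table). TGATGNAA was found in 2 of the 12 windows, those of GOT1 and of 1 of the 5 BCAT1 starts. It was in 3.62% of all 35116 windows and in 1.93% of the 13815 windows of the genes fitted below. CACGTG was found in 2 of the 12, in ALDH18A1 and in that same BCAT1 window downstream of the start. It was in 7.26% of all windows and in 9.35% of those of the fitted genes. Windows of 1 gene are not independent of each other. No window of CBS, CTH or BCKDHA held either motif. The 2 upstream sequences with TGATGNAA are shown because they held the only matches to it in the 12 windows. Each is the 250 bases before the start, 5′ to 3′ on the gene's strand, with the match in capitals, 48 bases before the start in BCAT1 and, on the opposite strand, 198 bases before it in GOT1.
BCAT1 (GRCh38.p14, chr12:24949102-24949351, minus strand): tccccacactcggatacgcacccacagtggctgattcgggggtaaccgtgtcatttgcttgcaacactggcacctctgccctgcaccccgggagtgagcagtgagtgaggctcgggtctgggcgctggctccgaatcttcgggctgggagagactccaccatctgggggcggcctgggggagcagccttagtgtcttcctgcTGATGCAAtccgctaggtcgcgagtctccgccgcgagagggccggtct
GOT1 (GRCh38.p14, chr10:99430625-99430874, minus strand): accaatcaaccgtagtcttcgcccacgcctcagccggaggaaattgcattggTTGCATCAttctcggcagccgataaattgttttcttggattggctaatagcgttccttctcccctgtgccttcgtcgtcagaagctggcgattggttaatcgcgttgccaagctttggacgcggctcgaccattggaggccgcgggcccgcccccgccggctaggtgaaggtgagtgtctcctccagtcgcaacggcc
A match is a run of letters and not a shown binding site.

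Levels are given as TPM (transcripts per 1000000, a length-scaled share of the library), and differences as limma log2 fold changes of TPM + 1 with their standard error (SE). All 8 genes had at least 1 TPM in every library, and the fit held the 14151 genes that reached 1 TPM in 2 or more libraries. A gene is called past the thresholds when its log2 fold change is 1 or more in size and its adjusted p (Benjamini-Hochberg) is below 0.01. TPM within a library sum to a constant, and the median gene lay at -0.16 under palbociclib and -0.22 under the combination, each on the log2 scale against control. Within a group, replicates correlated across genes at r of 0.983 to 0.991, and the number of genes with at least 1 TPM ran from 13320 to 13640 per library. The 10 myeloid markers of a list for leukemia cells were all measured, with a summed level of 942 to 1430 TPM in control, 1390 to 2320 in TCP, 17300 to 19900 in palbociclib and 27800 to 29900 TPM in the combination. LYZ, lysozyme, made up most of these sums under palbociclib and the combination. The other 9 summed to 660 to 664 TPM in control, 626 to 671 in TCP, 881 to 890 in palbociclib and 1220 to 1260 TPM in the combination. Of these, FLT3, a receptor of immature myeloid cells, fell, with log2 fold changes of -1.52 (SE 0.22, limma adjusted p = 0.00194) under palbociclib and -1.71 (SE 0.22, limma adjusted p = 0.00083) under the combination. The 11 stromal markers other than TAGLN, a gene that these cells also expressed, summed to between 1.53 and 15.2 TPM in 7 libraries and to 71.7 TPM in palbociclib replicate 2, where COL1A1 stood at 22.2 TPM. POSTN was at 0 in all libraries, 6 of the 12 stromal genes were fitted, and none was past the thresholds in any comparison. In bulk RNA, fewer cells of a type and less RNA per cell cannot be told apart.

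Under palbociclib, alone or with TCP, the transsulfuration and cytosolic branched-chain enzymes stood far below control. PYCR1 and GOT1 stood lower by a factor of more than 2, and the remaining enzymes differed little or moderately. All 8 genes had their 4 libraries with palbociclib below their 4 libraries without it, as did 36.5% of all genes fitted. Past the thresholds in the lower direction were 5 of 8 under palbociclib (BCAT1, CBS, CTH, PYCR1 and GOT1), where 4.56% of all genes fitted were called lower and 4.54% higher. The same 5 were past them under the combination, where 7.82% of all genes were called lower and 5.87% higher. These shares stand beside the counts for scale only, since the genes were chosen on these contrasts. The median log2 fold change of the 8 genes was -1.17 under palbociclib and -1.29 under the combination.

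**Figure D1:**
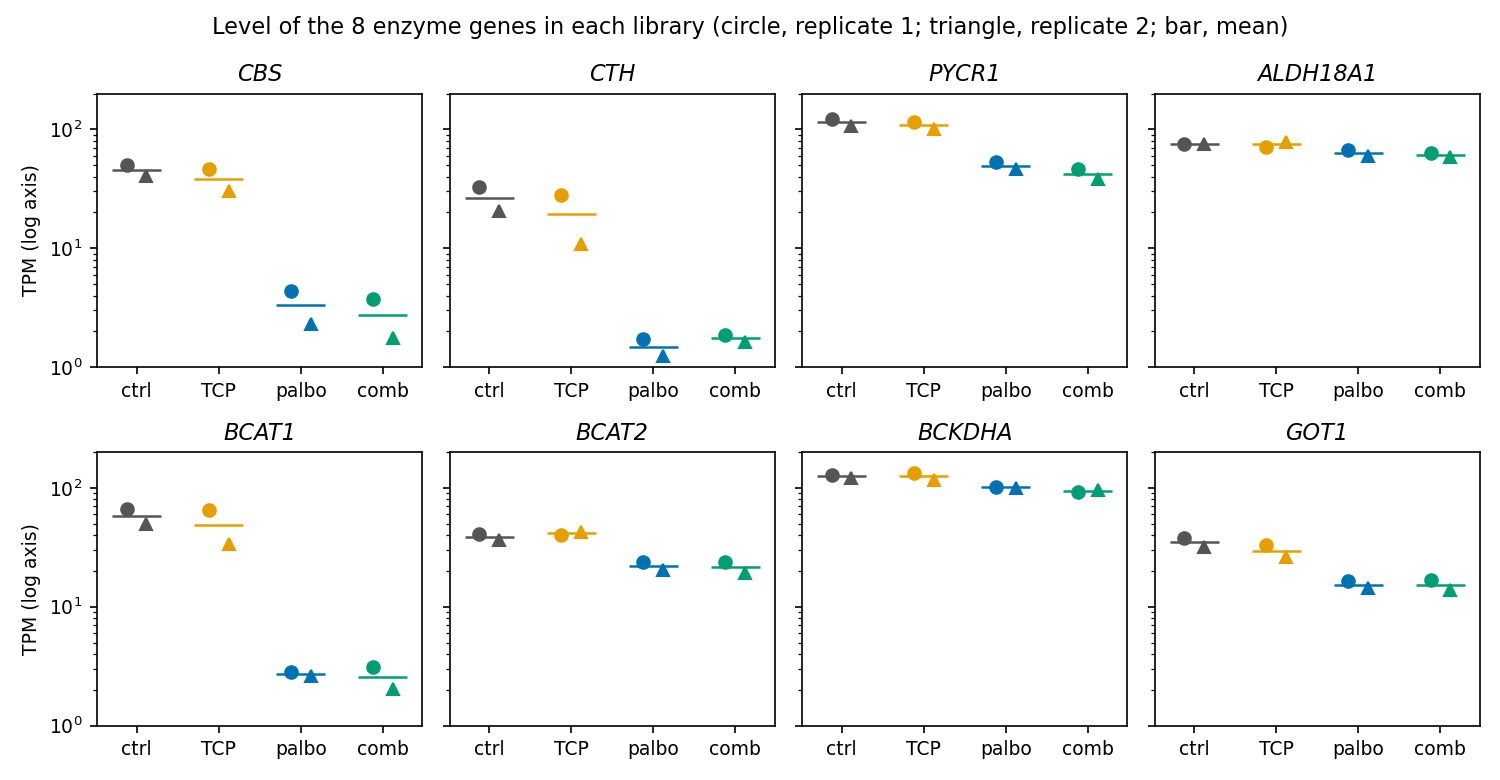
Level of each of the 8 enzyme genes in TPM (log axis) in the 2 libraries of control (ctrl), TCP, palbociclib (palbo) and combination (comb), with circles for replicate 1, triangles for replicate 2 and bars for the group mean. CBS, CTH and BCAT1 lay between 10.8 and 65.9 TPM without palbociclib and between 1.24 and 4.34 TPM with it, while ALDH18A1 and BCKDHA stayed above 58 TPM in every library.

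CBS, cystathionine beta-synthase, joins homocysteine and serine (GRCh37 chr21:44473301-44497053, minus strand). Its level was 50.4 and 40.7 TPM in control, 45.96 and 30.1 in TCP, 4.34 and 2.31 in palbociclib and 3.71 and 1.76 TPM in the combination. All libraries with palbociclib lay far below those without it, and adding TCP left the libraries overlapping on either side. The mean was 45.5 ± 6.89 TPM in control, 3.33 ± 1.43 in palbociclib and 2.73 ± 1.38 TPM with both molecules (SD, n = 2). The log2 fold change was -3.46 (SE 0.34) under palbociclib and -3.68 (SE 0.34) under the combination, the 8th and 6th largest decreases of the 14151 genes. Between libraries of the same replicate number, palbociclib minus control was -3.27 in replicate 1 and -3.65 in replicate 2 on the log2 scale.

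CTH, cystathionine gamma-lyase, releases cysteine from cystathionine (GRCh37 chr1:70876901-70905534, plus strand). It stood at 32.8 and 20.4 TPM in control, 28.2 and 10.8 in TCP, 1.73 and 1.24 in palbociclib and 1.88 and 1.64 TPM in the combination. The replicates differed most in TCP, where replicate 2 was lower than replicate 1 by a factor of 2.61. Control averaged 26.6 ± 8.73 TPM (SD, n = 2), 17.9 times the mean under palbociclib and 15.1 times that under the combination. The levels with palbociclib lie near 1 TPM, so the pseudocount of 1 shrinks the log2 fold change, which was -3.445 (SE 0.41) under palbociclib and -3.29 (SE 0.41) under the combination. With a pseudocount of 0.1 they were -4.05 and -3.81. The ratio of CBS to CTH ran from 1.54 to 2.78 without palbociclib and from 1.07 to 2.51 with it, and these ranges overlapped.

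Proline synthesis divided between its first and last enzymes. ALDH18A1, which reduces glutamate toward pyrroline-5-carboxylate (GRCh37 chr10:97365698-97416468, minus strand), was measured at 74.6 and 75.2 TPM in control, 71.4 and 78.3 in TCP, 66.7 and 59.96 in palbociclib and 62.9 and 58.1 TPM in the combination. Its log2 fold change of -0.24 (SE 0.09) under palbociclib and -0.305 (SE 0.09) under the combination was within 0.09 of the median gene, and with median-ratio scaling of the libraries it was -0.08 in both. PYCR1, the mitochondrial reductase that makes proline (GRCh37 chr17:79890260-79900288, minus strand), was measured at 122 and 107 TPM in control, 116 and 100.05 in TCP, 52.9 and 46.1 in palbociclib and 46.3 and 38.1 TPM in the combination. PYCR1 was therefore lower in each library with palbociclib than in each without, by 2.32 times in the mean under palbociclib and 2.72 times under the combination. Its log2 fold change was -1.195 (SE 0.13) under palbociclib and -1.42 (SE 0.13) under the combination. MYADML2 overlaps PYCR1 on the same strand, and how shared reads were counted is not given in the sources used here.

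Setting 2 enzymes of one library against each other removes the scaling of that library. The ratio of PYCR1 to ALDH18A1 was 1.28 to 1.63 in the 4 libraries without palbociclib and 0.656 to 0.793 in the 4 with it. PYCR3, a cytosolic reductase listed in the table under its older symbol PYCRL, had -0.08 (SE 0.16, limma adjusted p = 0.712) under the combination. ALDH4A1, the mitochondrial dehydrogenase that returns proline carbon to glutamate, rose from 18.1 ± 2.48 TPM in control to 58.7 ± 0.508 TPM under palbociclib (SD, n = 2), with a log2 fold change of 1.65 (SE 0.12, limma adjusted p = 0.000168). Its ratio to PYCR1 was 0.134 to 0.187 without palbociclib and 1.1 to 1.35 with it. PRODH, which acts before ALDH4A1 in that direction, was below 0.3 TPM in all libraries and was not fitted.

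The 2 branched-chain aminotransferases parted more than any other pair compared. BCAT1 (GRCh37 chr12:24962958-25102035, minus strand) was measured at 65.9 and 49.2 TPM in control, 64.5 and 33.7 in TCP, 2.84 and 2.62 in palbociclib and 3.14 and 2.04 TPM in the combination. The libraries with palbociclib lay close to each other, while those with TCP spread from the control level to below it. Control averaged 57.6 ± 11.8 TPM, palbociclib 2.73 ± 0.154 TPM and the combination 2.59 ± 0.775 TPM (SD, n = 2). The log2 fold change of -3.96 (SE 0.31) under palbociclib and -4.03 (SE 0.31) under the combination ranked 2 of 14151 genes by decrease in both comparisons, after PHGDH, the first enzyme of serine synthesis, with -6.36 and -6.39. Between same-numbered libraries, palbociclib minus control was -4.12 in replicate 1 and -3.795 in replicate 2.

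BCAT2 (GRCh37 chr19:49298319-49314286, minus strand) had 40.9 and 36.2 TPM in control, 39.7 and 42.9 in TCP, 23.9 and 20.5 in palbociclib and 23.9 and 19.1 TPM in the combination. It too was lower in each library with palbociclib, but by 1.74 and 1.8 times in the means, with log2 fold changes of -0.77 (SE 0.135) and -0.82 (SE 0.135) that were not past the threshold of 1. By this measure BCAT2 was the nearest of the 8 genes outside it and GOT1 the nearest inside it. BCAT1 made up 61.7% and 57.6% of the summed TPM of the pair in control, 61.9% and 43.99% in TCP, 10.6% and 11.3% in palbociclib and 11.6% and 9.68% in the combination. The more abundant transcript of the pair was BCAT1 in 3 of the 4 libraries without palbociclib and BCAT2 in the 4 libraries with it.

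BCKDHA (GRCh37 chr19:41903713-41930907, plus strand) was measured at 129 and 120.4 TPM in control, 133 and 116 in TCP, 102 and 100.5 in palbociclib and 92.6 and 95.05 TPM in the combination. Both combination libraries lay below both palbociclib libraries, by a log2 difference of -0.11 (SE 0.08), where those of the other enzymes overlapped. How many of all genes fitted lie so was not counted, so this is not read as particular to BCKDHA. The log2 fold change of BCKDHA was -0.29 (SE 0.08) under palbociclib and -0.40 (SE 0.08) under the combination, or -0.13 and -0.18 relative to the median gene. BCKDHB, the E1 beta subunit of the same complex, fell under the combination, with a log2 fold change of -1.03 (SE 0.21, limma adjusted p = 0.00638). Under palbociclib BCKDHB had -0.53 (SE 0.21, limma adjusted p = 0.0807). With the replicate number as a term in the model, this value kept its size and had a limma adjusted p of 0.00318. The call of BCKDHB was lost with median-ratio scaling (log2 fold change -0.81, limma adjusted p = 0.0144), with quantile normalization, with no filter on low values, and without either control or either combination library. DBT, the E2 subunit, had -0.31 (SE 0.20, limma adjusted p = 0.234) under the combination and DLD, the E3 subunit, -0.31 (SE 0.095, limma adjusted p = 0.0279). The kinase BCKDK, which inactivates the complex, had 0.25 (SE 0.11, limma adjusted p = 0.0842), and the phosphatase PPM1K, which reactivates it, -0.76 (SE 0.37, limma adjusted p = 0.122).

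GOT1 (GRCh37 chr10:101156627-101190381, minus strand) stood at 38.2 and 32.1 TPM in control, 32.96 and 26.4 in TCP, 16.3 and 14.4 in palbociclib and 16.9 and 13.7 TPM in the combination. Each library with palbociclib was lower than each without, by 2.29 and 2.3 times in the means against control. The log2 fold change was -1.14 (SE 0.16) under palbociclib and -1.15 (SE 0.16) under the combination. GOT1 was thus close to the threshold of 1, and with median-ratio scaling it was at -0.98 and -0.93. It was -0.93 under the combination with quantile normalization. Its adjusted p no longer passed under palbociclib without control replicate 1 (log2 fold change -1.02) or palbociclib replicate 2 (-1.05), or under the combination without combination replicate 2 (-1.01). The mitochondrial enzyme GOT2 had -0.84 (SE 0.09, limma adjusted p = 0.000632) under palbociclib and -0.52 (SE 0.09, limma adjusted p = 0.00293) under the combination, neither past the fold threshold. The ratio of GOT1 to GOT2 was 0.326 to 0.508 without palbociclib and 0.272 to 0.376 with it, and these ranges overlapped.

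The 2 libraries with TCP alone overlapped the 2 control libraries for each of the 8 genes. How many of all genes fitted do so was not counted, so the overlap is not read as a result about these enzymes. None of the 8 was past the thresholds, where 0.0565% of all genes fitted were, in either direction. The differences ran from -0.54 (SE 0.41) for CTH to 0.10 (SE 0.135) for BCAT2, with a median of -0.16 where the median gene was at -0.04. For CTH, BCAT1 and CBS the lower TCP mean came mainly from replicate 2, in which TCP minus control was -0.86, -0.535 and -0.42, against -0.21, -0.03 and -0.13 in replicate 1. GOT1 had -0.21 in replicate 1 and -0.27 in replicate 2, and PYCR1 had -0.07 and -0.10. TCP was thus below control in both same-numbered pairs for 5 of the 8 genes, as it was for 40.5% of all genes fitted.

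Adding TCP to palbociclib gave log2 differences between -0.23 (SE 0.13) for PYCR1 and 0.16 (SE 0.41) for CTH. In both same-numbered pairs the combination was below palbociclib for CBS, PYCR1, ALDH18A1 and BCKDHA, and above it for CTH. For BCAT1, BCAT2 and GOT1 the pairs differed in direction. How many of all genes fitted do either was not counted. None of the 8 was past the thresholds, against 0.502% of all genes in either direction. Set against TCP alone, the combination had 4 of 8 past them in the lower direction (BCAT1 at -3.75, CBS at -3.41, CTH at -2.75 and PYCR1 at -1.34), where 6.7% of all genes were called lower, and GOT1 had -0.91 (SE 0.16). CTH was no longer past them when the fit held only the 2 groups, or without either combination library. The interaction, which asks whether the effect of TCP differed with palbociclib, ran from -0.15 (SE 0.19) for BCAT2 to 0.70 (SE 0.58) for CTH. By limma 0 of the 14151 genes were past the thresholds for it (0%), with 904 at an unadjusted p below 0.05.

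Whether differences by replicate number had a part in the choice of the list is not known. They were looked at after the values had been seen, so the adjusted p of this paragraph carry no more weight than a description. Replicate 2 was below replicate 1 in 4 of 4 groups for CBS, CTH, PYCR1, BCAT1 and GOT1, as it was for 22.4% of all genes fitted. These are the same 5 genes that were past the thresholds under palbociclib, and they are not 5 independent observations. In the limma model with the replicate number as a term, CBS was lower in replicate 2 by a log2 difference of -0.59 (SE 0.09, limma adjusted p = 0.0475). CBS was the 1 gene of the 8 below an adjusted p of 0.05, as were, in the lower direction, 0.791% of all genes. CTH had -0.59 (SE 0.19, limma adjusted p = 0.121), BCAT1 -0.465 (SE 0.13, limma adjusted p = 0.0928), GOT1 -0.25 (SE 0.05, limma adjusted p = 0.0612) and PYCR1 -0.215 (SE 0.04, limma adjusted p = 0.0575). ALDH18A1, BCAT2 and BCKDHA lay between -0.03 and -0.15 with adjusted p of 0.267 to 0.778. What the numbers share is not given in the sources used here.

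The neighbouring enzymes were read from 4 lists that leave out the 8 genes, with 73 genes, of which 65 were fitted. All 4 libraries with palbociclib lay below the others for 32 of the 65 and above them for 8, against 36.5% and 17.5% of all genes. By limma 1 of the 65 rose and 6 fell under palbociclib, and 1 rose and 8 fell under the combination. Of all genes fitted, 4.54% were called higher and 4.56% lower under palbociclib, and 5.87% and 7.82% under the combination. With median-ratio scaling, which puts the median gene near 0, the neighbouring enzymes split 2 higher to 4 lower under palbociclib and 3 to 5 under the combination. With quantile normalization it was 1 to 4 and 3 to 4. The lists were written with earlier results of these libraries known. None of their genes was past the thresholds under TCP, between the combination and palbociclib, or for the interaction.

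In the methionine cycle and sulfur list, 0 of 15 fitted genes were past the thresholds under palbociclib and 1 fell under the combination. The list's median log2 fold change under the combination was -0.38, where CBS and CTH stood at -3.68 and -3.29. The gene that fell was MTAP, which salvages methionine from methylthioadenosine, with -1.07 (SE 0.11, limma adjusted p = 0.000284), and it had -0.84 with median-ratio scaling. MPST, a sulfurtransferase that takes sulfur from cysteine, had -0.55 (SE 0.12, limma adjusted p = 0.00847). SQOR (listed as SQRDL), which oxidizes sulfide in mitochondria, had the highest value of the list, 0.85 (SE 0.16, limma adjusted p = 0.00374), and was past the thresholds with median-ratio scaling and with quantile normalization.

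In the proline, ornithine and glutamate list, 4 of 14 fitted genes were past the thresholds under the combination. ALDH4A1 rose, with 1.46 (SE 0.12, limma adjusted p = 0.000139), and 3 fell. P4HA1, a prolyl hydroxylase subunit for collagen, fell, with a log2 fold change of -1.47 (SE 0.29, limma adjusted p = 0.00489), a call that was lost when any control, palbociclib or combination library was left out. ODC1, which turns ornithine into putrescine, fell, with -1.385 (SE 0.07, limma adjusted p = 2.98e-05). GLUL, glutamine synthetase, had -1.075 (SE 0.07, limma adjusted p = 5.13e-05), which became -0.85 with median-ratio scaling. In TCP alone GLUL was also lower than control, with 136 ± 2.1 TPM against 229.6 ± 3.42 TPM (SD, n = 2).

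The breakdown list of 23 genes, all fitted, ran from BCKDHB at -1.03 to 0.67 under the combination, with a median of -0.31 beside -0.22 for all genes. BCKDHB was the 1 gene past the thresholds there, and under palbociclib 0 of 23 were. In the list of aspartate, alanine and other transaminases, 4 of 14 fitted genes fell under palbociclib and 3 under the combination, and the list's medians were -0.62 and -0.67. GPT2, mitochondrial alanine aminotransferase, fell from 45.02 ± 9.38 TPM in control to 3.12 ± 0.0961 TPM in the combination (SD, n = 2), with -3.47 (SE 0.25, limma adjusted p = 8.73e-05). PSAT1, the aminotransferase of serine synthesis, fell from 308 ± 57.1 to 29.3 ± 3.97 TPM (SD, n = 2), with -3.34 (SE 0.275, limma adjusted p = 0.000132). ASNS, asparagine synthetase, fell from 173 ± 50.5 to 16.1 ± 0.444 TPM (SD, n = 2), with -3.31 (SE 0.355, limma adjusted p = 0.000369). The fourth gene that fell under palbociclib was KYAT1 (listed as CCBL1), a kynurenine aminotransferase, at -1.36 (SE 0.115, limma adjusted p = 0.00027). Under the combination it had -0.92 (SE 0.115, limma adjusted p = 0.000678), short of the fold threshold alone.

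ATF4 itself fell, from 795 ± 22.4 TPM in control to 285 ± 14.1 with palbociclib and 261 ± 16.95 TPM in the combination (SD, n = 2), with log2 fold changes of -1.48 (SE 0.08, limma adjusted p = 5.6e-05) and -1.60 (SE 0.08, limma adjusted p = 2.51e-05). In a reference list of its pathway, which also holds PSAT1 and ASNS, 12 of 16 fitted genes fell and 1 rose under palbociclib, and 12 fell and 2 rose under the combination. The 2 that rose were SLC7A11, the cystine transporter, and CEBPB, with 1.47 and 1.07 under the combination. In a reference list of proliferation genes, 7 of 10 fell under palbociclib and 10 of 10 under the combination, where its median was -1.615. Among all genes fitted, 4.56% were called lower and 4.54% higher under palbociclib, and 7.82% and 5.87% under the combination. Both lists moved with the same libraries as the 8 enzymes, and their part in these levels was not tested. The stromal sum was highest in palbociclib replicate 2, and in palbociclib replicate 1, where it was 4.96 TPM, CBS, CTH and BCAT1 stood at 4.34, 1.73 and 2.84 TPM. Without palbociclib replicate 2 their log2 fold changes under palbociclib were -3.12, -3.30 and -3.92. The part of stromal cells in these levels was not tested.

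As a description of likeness, each gene was set against 3279 fitted genes with a mean of at least 5 TPM and a range of at least 1 on the log2 scale, by Pearson r over the 8 libraries. The libraries fall into those with and without palbociclib, and a gene that follows that split has a high r with any other that does. The nearest were PRKCQ-AS1, ZDHHC6 and KAZN for CBS (0.999 each), and ADM2 (0.999), RGS16 and ULBP1 (0.998 each) for CTH. For PYCR1 they were NUP155 and C1orf198 (0.998 each) and IPO5 (0.997), and for ALDH18A1, which varied least, MAP6D1 (0.988), MIR621 (0.987) and RPUSD2 (0.983). For BCAT1 they were LOC100130872 and XBP1 (0.998 each) and MPP6 (0.997), and for BCAT2 C1QBP and PRR29 (0.991 each) and POLR3G (0.99). For BCKDHA they were MICU2 (0.997), LXN and PGM1 (0.992 each), and for GOT1 SCD (0.997), TARS (0.995) and PDP2 (0.994).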

How the data were processed

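The 8 MV4-11 RNA-seq libraries form 4 groups of 2. The authors deposited TPM, derived from read counts per gene. Per the labels and the study's methods, reads from stranded mRNA libraries were aligned with Subread to hg19 (GRCh37), handled with SAMtools 1.9, counted with featureCounts 1.6.4 and tested with DESeq2 1.26.0. Annotation, gene lengths and strand setting are not given in the sources used here. TPM sum to 1000000 in every library and keep no depth, so depth is unknown and no counting interval is given. Genes that take a larger share of a library lower all others.

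From these, log2(TPM + 1) was fitted with limma 3.58.1 (R 4.3.3), using all 8 libraries, a mean for each group, a mean-variance trend and Benjamini-Hochberg adjustment over 14151 genes. The script was tested on simulated data. Same-numbered libraries deviated together (r of 0.169 to 0.491 for all 6 pairs of groups), so they may be paired, on these values alone. The main fit, with its SE and adjusted p, did not use this pairing. The model with the replicate block was an alternative. Named genes were the 8 enzymes, their sister enzymes, up to 3 called genes per list and direction, ATF4 with its list, and the 3 nearest genes by correlation. Of the genes this rule covers, 1 is not reported here. KYAT1, SQOR, FLT3, LYZ, PHGDH, SLC7A11, CEBPB, PRODH and COL1A1 were added after their values were seen. The enzymes and lists were chosen with earlier results of these data known. Alternatives were other pseudocounts, filters, scalings, thresholds, fits and each library left out.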

Additional observations from a re-analysis of the deposited data

Results flagged for a closer look

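The 8 enzymes and the 65 fitted neighbouring enzymes were screened for opposite effects of TCP without and with palbociclib. In 3 neighbouring enzymes the 2 libraries with TCP lay on one side of those without it in the absence of palbociclib and on the other side in its presence. How many of all genes fitted do so was not counted, so the 3 are listed and not read as a result about these enzymes. The difference of the 2 TCP effects, tested as the interaction in limma, was -0.208 (SE 0.10, limma adjusted p = 0.841) on the log2 scale for ADSL, a lyase of purine synthesis. It was -0.187 (SE 0.09, limma adjusted p = 0.841) for MDH2, mitochondrial malate dehydrogenase, and 0.105 (SE 0.09, limma adjusted p = 0.98) for GLUD2, a glutamate dehydrogenase whose near-identical copy GLUD1 can exchange reads with it. None was past the threshold, and no group had enough libraries for a test of single outlying libraries.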

How the results depend on the processing

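Across the alternatives, 724 of 808 log2 fold changes of the 8 enzymes moved by less than the spread between replicates. The other 84 moved by more, 0 reversed where called, and all 272 values with palbociclib against control were below 0. Many of these values could not move. Other filters, thresholds and variance trends, the replicate block and fits of only the groups compared leave a log2 fold change as it is. So does leaving out a library of a group that is not compared. The tallies are therefore no measure of robustness, and the genes were chosen on these contrasts. The median log2 fold change under the combination, -1.29, was -1.08 with quantile normalization and -1.06 with median-ratio scaling, and -1.425 to -1.149 with 1 library left out. The enzymes past the thresholds numbered 4 to 5 under palbociclib and under the combination, and 3 to 5 for the combination against TCP. The neighbouring enzymes past them numbered 5 to 7 under palbociclib, 6 to 10 under the combination and 6 to 8 against TCP, within 1.5 times the values reported. The combination's 9 fell to 6 without combination replicate 2. With the replicate block, counts were 5 enzymes and 7 neighbouring enzymes under palbociclib, and 5 and 9 under the combination, the counts without it, and no call of the 8 enzymes differed. The share of all genes called with the block, with other filters or with a library left out is not given here, so these counts lack a scale. Over all genes, the calls under palbociclib divided into 643 higher and 645 lower as reported, 817 and 414 with median-ratio scaling, and 738 and 473 with quantile normalization. Under the combination they were 830 and 1107, 1104 and 680, and 1003 and 786. A fit of only the groups compared could not be made for the interaction, which uses all 4 groups. Where a library is left out, the lone library of its group is assumed to vary like the others. With 2 libraries a group and unknown depth, small differences of CTH, CBS and BCAT1 near 1 to 4 TPM could not be separated from their spread.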
